A study of Homo sapiens with 18 samples.

Results

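The 10 genes described here mark how epithelial or mesenchymal a cell is: the cadherins CDH1, CDH2 and CDH3, the intermediate filament gene VIM, the transcription factors SNAI1, SNAI2 and ZEB1, the splicing regulators ESRP1 and ESRP2, and the surface gene EPCAM. They were taken by symbol from a count table of 60662 genes, each symbol matched 1 gene, and all 10 were among the 18592 genes with enough counts to be tested. The selection rule uses gene symbols alone, but the symbols were chosen with earlier results of these data known.

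Epithelial cells adhere to each other through E-cadherin (CDH1), which is anchored to actin by catenins, and they splice many transcripts in an epithelial pattern under ESRP1 and ESRP2. In an epithelial-mesenchymal transition, zinc-finger factors of the SNAI and ZEB families bind E-box motifs and repress CDH1 and other epithelial genes, while vimentin and often N-cadherin (CDH2) increase. Basal mammary epithelial cells, the type that MCF10A most resembles, normally carry P-cadherin (CDH3), SNAI2 and some vimentin while remaining epithelial.

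MCF10A is an established, non-malignant human breast epithelial cell line. All cells were plated sparsely on compliant polyacrylamide gels coated with Matrigel, a basement membrane extract, and received medium with horse serum, EGF, insulin, cholera toxin and hydrocortisone. In the 2D groups the medium was then renewed alone, and in the 3D groups it was renewed with Matrigel added, which sets around the cells. Each culture was sampled at timepoints 1, 2 and 3, which match harvests at 3, 12 and 21 h by their order in the protocol, with 3 libraries in each of the 6 groups. One cell line on one kind of gel limits the groups as a model, and nothing in the labels says whether the libraries came from separate cultures, so p-values measure the spread between these libraries.

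The SNAI and ZEB factors read short DNA motifs, and the ZEB factors are known targets of 2 groups of microRNAs. The E-box was searched as CAGGTG on both strands in RefSeq promoter windows of 300 bases at start sites, on GRCh38.p14. It was present in 7231 of 35116 windows (20.6%). Among the 10 genes, 3 had windows: VIM with 1, CDH2 with 2 and ZEB1 with 7. The E-box was absent from the VIM and CDH2 windows, and it occurred in 2 of the ZEB1 windows, with 3 matches in the window at chr10:31318966-31319265 on the plus strand. That window is shown because ZEB1 is itself one of the factors that read the motif, with the matches in capitals. The VIM window, chr10:17227991-17228290 on the plus strand, is shown because VIM changed between libraries, with its 1 match to the GC box GGGCGG, searched on both strands, in capitals. This window ends before the VIM start given with the counts, 17229278, and overlaps the start of the GENCODE span of VIM, 17228259. It need not be the promoter of the transcripts counted. The GC box was present in 15786 of the 35116 windows (45%).
ZEB1: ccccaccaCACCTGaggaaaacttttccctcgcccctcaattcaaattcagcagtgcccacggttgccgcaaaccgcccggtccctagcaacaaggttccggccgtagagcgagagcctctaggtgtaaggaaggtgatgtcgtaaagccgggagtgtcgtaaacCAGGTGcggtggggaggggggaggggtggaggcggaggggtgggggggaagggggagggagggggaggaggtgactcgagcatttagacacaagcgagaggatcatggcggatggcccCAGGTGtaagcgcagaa
VIM: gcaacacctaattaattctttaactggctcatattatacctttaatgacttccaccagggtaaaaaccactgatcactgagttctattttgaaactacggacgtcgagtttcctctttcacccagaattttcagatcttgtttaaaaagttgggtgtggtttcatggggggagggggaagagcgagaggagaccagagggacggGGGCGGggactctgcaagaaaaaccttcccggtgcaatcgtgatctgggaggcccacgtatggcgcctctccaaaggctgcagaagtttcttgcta
These matches describe the letters of the windows and are no evidence of binding.

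The microRNAs known to restrain ZEB1 are miR-205 and the miR-200 family. RefSeq gives the mature sequences below, with the seed, bases 2 to 8, in capitals. They are shown because the host transcript of miR-205, MIR205HG, was measured here, while the microRNAs themselves were not. Within the family, miR-200c and miR-141 have seeds that differ, and miR-200b and miR-429 share the seed of miR-200c, as miR-200a shares that of miR-141.
hsa-miR-205-5p: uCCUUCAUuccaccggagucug
hsa-miR-200c-3p: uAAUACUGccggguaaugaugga
hsa-miR-141-3p: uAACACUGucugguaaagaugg

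The counts summed to between 49.8 M and 93.9 M per library (M, mega), which is 4.73 to 5.73 times the totals in the file headers, 9.31 M to 17.7 M. Values are therefore given as CPM, each count relative to the summed counts of its library, scaled between libraries by TMM, and they order samples for 1 gene but do not order genes. The tests used 17 libraries, leaving out 2D timepoint 3 replicate 1, whose labels list the raw table alone. That library held 62.7 CPM of CDH1, 112 of CDH3, 44.7 of SNAI2 and 11.7 of EPCAM. For CDH1, CDH3 and EPCAM this was below each of the other 8 libraries from 2D, and for SNAI2 it was above each of them, so for these 4 genes the culture difference at timepoint 3 is also given with all 18. All 10 basal mammary markers, KRT5, KRT14 and TP63 among them, were at 1 CPM or more in every library. Of 9 luminal markers 3 were (KRT8, KRT18 and GATA3), while KRT19 stayed at or under 0.721 CPM and PGR had no count. Of 9 fibroblast markers 3 were (DCN, FAP and COL1A1), while COL3A1 had no count. Of 5 leukocyte markers 2 were, CD68 (5.61 to 20.8 CPM) and CD14 (5.53 to 19.4 CPM), while CD3E had no count. Of 5 endothelial markers 0 were, and PECAM1 and KDR reached 1 CPM in 11 of the 17 libraries each. The summed fibroblast markers overlapped between cultures, between 120 and 221 CPM (3D) and between 154 and 245 CPM (2D) at timepoint 2, and between 157 and 268 CPM (3D) and between 153 and 270 CPM (2D) at timepoint 3. The summed basal and luminal markers overlapped between cultures at timepoints 1 and 2 and not at timepoint 3. There the basal sum was 6124 to 9091 CPM in 3D and 10355 to 11580 in the tested 2D libraries, and the luminal sum was 470 to 623 and 738 to 786 CPM. Within 3D the luminal sum was 846 to 1417 CPM at timepoint 1 and 714 to 829 at timepoint 2, and the basal sum was 9181 to 15518 CPM at timepoint 1. The part of these sums in the differences of CDH1, CDH3 and EPCAM was not tested. In bulk RNA, fewer cells with a transcript and less transcript per cell cannot be told apart.

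**Figure D1:**
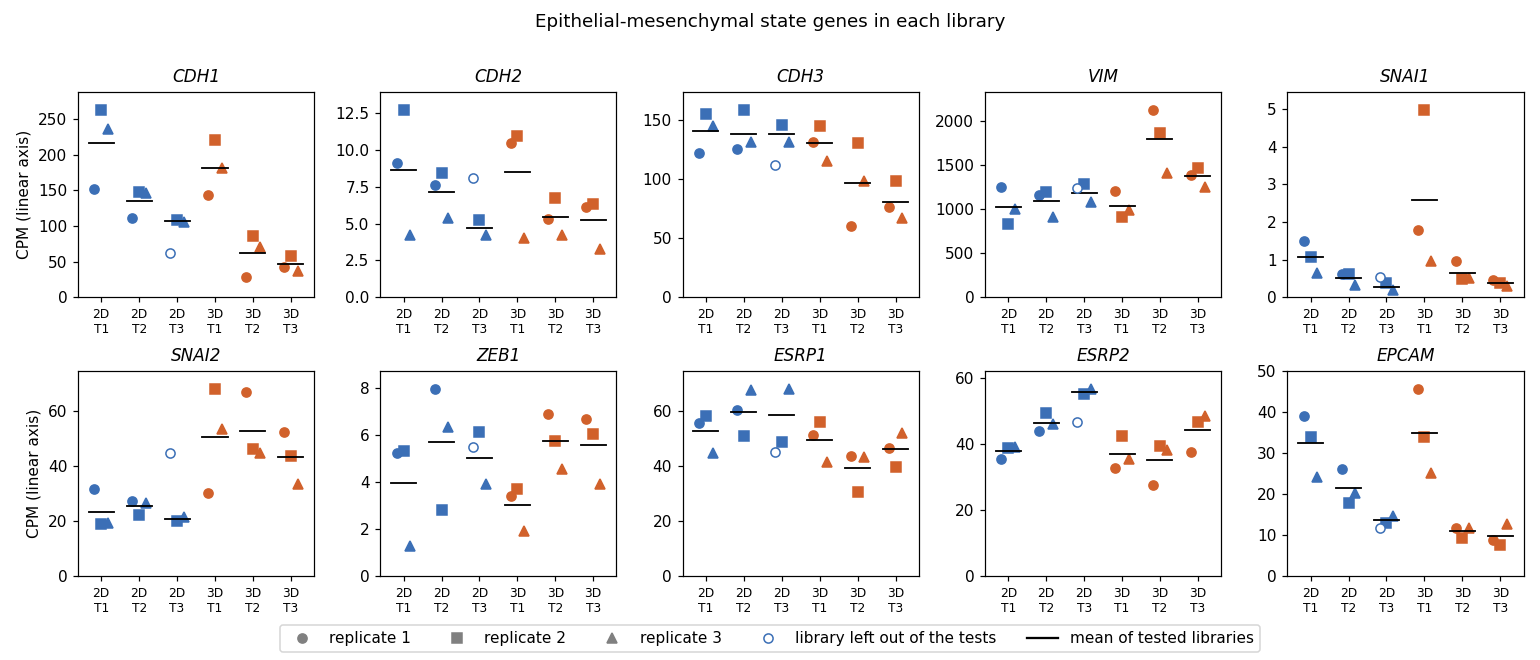
CPM (vertical axis, linear, from 0) of each of the 10 genes in every library, by culture (2D blue, 3D orange) and timepoint (T1 to T3). Symbols are replicates, black bars are means of the tested libraries, and the open circle is the 2D timepoint 3 library left out of the tests; CDH1 and EPCAM are lowest in the later 3D groups, and SNAI2 is above 30 CPM in every 3D library.

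On average over the 3 timepoints, CDH1 was lower and SNAI2 higher in 3D than in 2D. In this average, CDH1 fell by 0.87 on the log2 scale (SE 0.19, edgeR adjusted p = 0.0185) and SNAI2 rose by 1.08 (SE 0.17, edgeR adjusted p = 0.0035). These were the only members that passed, 1 of 10 lower and 1 of 10 higher, against 2.88% and 2.25% of the 18592 genes. Replicate numbers carry 1 date each in the labels, shared by all groups, and with the number as a block 5 of 10 were lower (CDH1, CDH3, ESRP1, ESRP2, EPCAM) and 2 higher (SNAI2, VIM). The block raised the share of all genes called to 9.15% lower and 9.59% higher. The median difference of the 10 was -0.17, and that of all genes tested was 0.00.

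At single timepoints the number called depended on the block. At timepoint 1 no gene in the whole table passed (0%), and none of the 10 did, with or without the block. Among all genes 244 had an unadjusted p under 0.05 there, SNAI1 and SNAI2 among them. At timepoint 2, 1.49% of all genes passed and none of the 10. An unadjusted p under 0.05 was found there for 7 of the 10 and for 3733 of the 18592 genes. With the block, 5 were lower (CDH1, CDH3, ESRP1, ESRP2, EPCAM) beside 6.86% of all genes, and 2 were higher (VIM, SNAI2) beside 9.00%. At timepoint 3, 1.50% of all genes passed and none of the 10, and with the block CDH1 and CDH3 were lower beside 5.30% of all genes. Mitochondrial transcripts took 0.541% to 1.21% of counts in 3D and 0.658% to 1.25% in 2D at timepoint 1, 0.364% to 0.482% and 0.908% to 1.18% at timepoint 2, and 0.398% to 0.533% and 0.589% to 0.684% at timepoint 3. Their part in these differences was not tested.

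**Figure D2:**
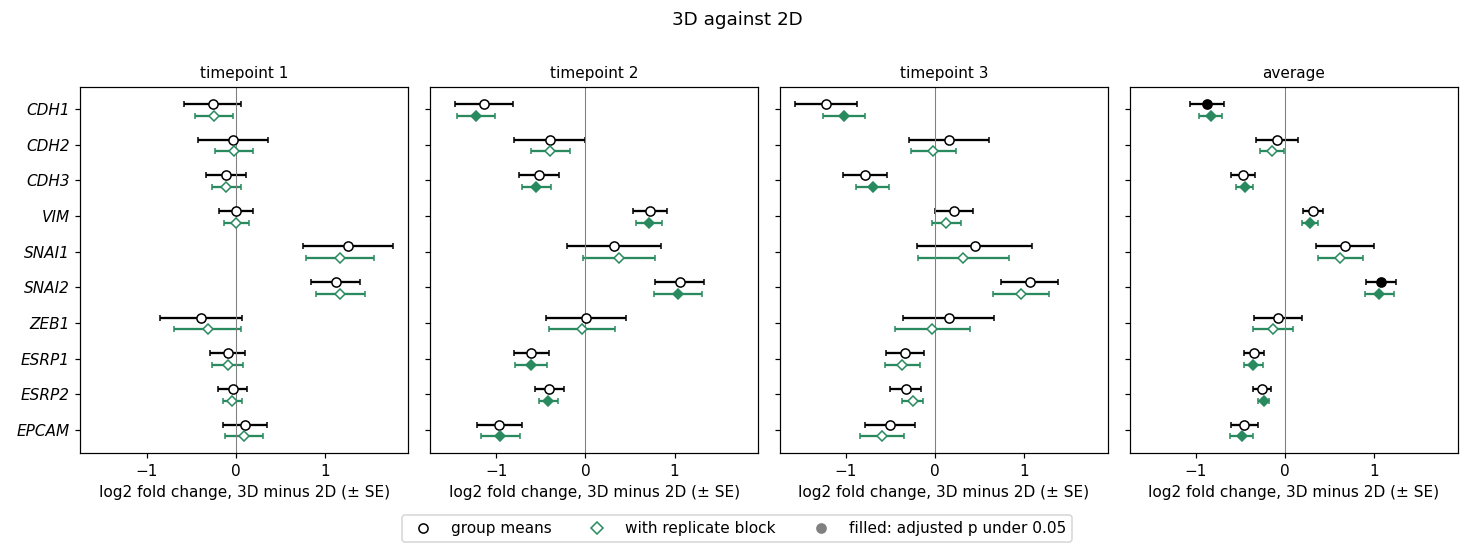
Log2 fold change, 3D minus 2D, with SE (horizontal axis) for each of the 10 genes at timepoints 1, 2 and 3 and on average. Black circles are the fit of group means, green diamonds the fit with the replicate block, and filled symbols have an adjusted p under 0.05; CDH1 and SNAI2 are filled in black on average, and the block fills 7 genes at timepoint 2.

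Over time EPCAM and CDH1 fell in 3D at both later timepoints, and in 2D EPCAM fell to timepoint 3. The 2D estimates of both genes were also negative but smaller, a difference between cultures that did not pass when tested directly. From timepoint 1 to 2 in 3D, 3 of 10 genes fell (CDH1, SNAI1, EPCAM) beside 7.76% of all genes, and 1 rose (VIM) beside 7.31%. The block added CDH3, for 4 lower beside 13.6% and 1 higher beside 14.8%. From timepoint 1 to 3 in 3D the same 3 genes fell beside 6.95% of all genes. The block added CDH2 and CDH3 as lower (12.5% of all genes) and VIM as higher (11.4%). In 3D the mitochondrial share of both later timepoints, given above, lay below that of timepoint 1 without overlap, and its part in these falls was not tested.

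In 2D none of the 10 passed between timepoints 1 and 2, where 5.87% of all genes did. Between timepoints 1 and 3 in 2D, 1 of 10 fell (EPCAM) beside 2.36% of all genes. The block made this 3 lower (CDH1, SNAI1, EPCAM) beside 5.13%, and 1 higher (ESRP2) beside 5.38%. The difference between the cultures in these changes was tested directly, and none of the 10 passed at timepoint 2 (0% of all genes, with 1624 at an unadjusted p under 0.05) or at timepoint 3 (0.183%), nor with the block. At timepoint 2 the culture difference changed by -1.07 for EPCAM (SE 0.35, edgeR adjusted p = 0.526) and 0.72 for VIM (SE 0.27, edgeR adjusted p = 0.534), the 2 members with an unadjusted p under 0.05.

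**Figure D3:**
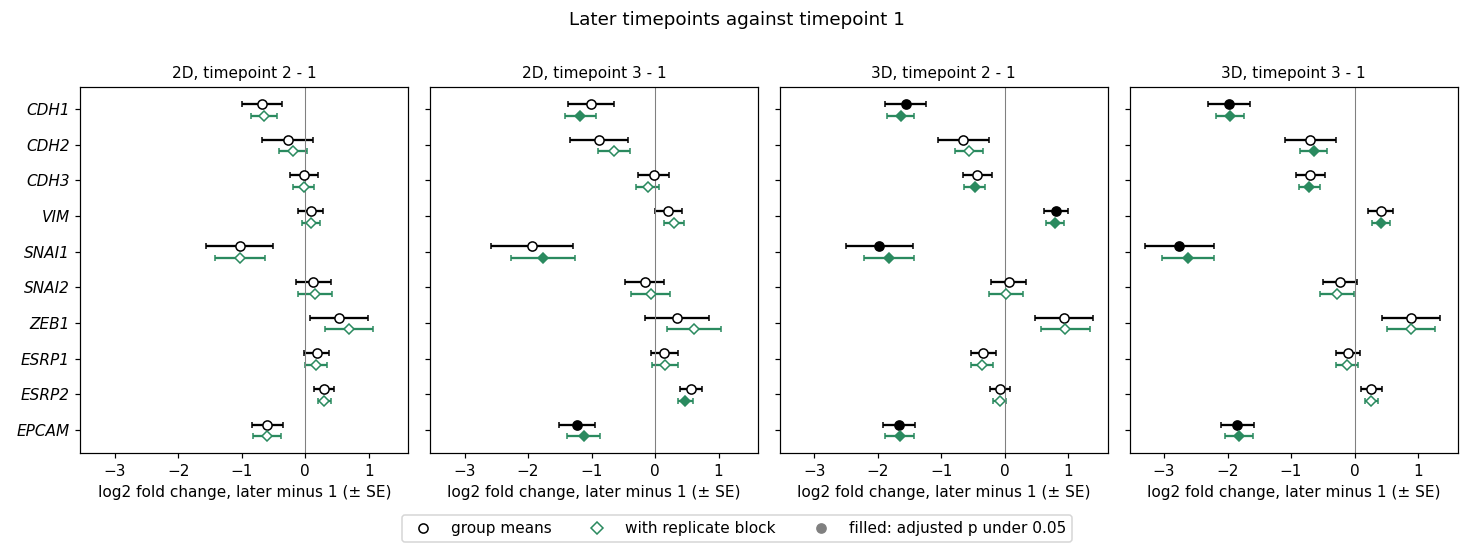
Log2 fold change with SE (horizontal axis) of timepoints 2 and 3 against timepoint 1, in 2D and in 3D, for each of the 10 genes. Symbols are as in the plot of 3D against 2D; CDH1, SNAI1 and EPCAM are filled on the lower side in both 3D panels.

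CDH1 (ENSG00000039068, protein-coding, chromosome 16, 68737292 to 68835537 on hg38 as the table gives it) encodes E-cadherin, the main adhesion molecule of epithelial junctions. In 2D it was at 153, 263 and 236 CPM at timepoint 1, at 112, 148 and 146 at timepoint 2, and at 109 and 106 at timepoint 3. In 3D it was at 143, 220 and 181 CPM at timepoint 1, at 28.0, 86.4 and 70.1 at timepoint 2, and at 42.5, 58.2 and 37.3 at timepoint 3. The cultures overlapped at timepoint 1, and from timepoint 2 every 3D library was below every tested 2D library. The difference was -1.14 at timepoint 2 (SE 0.32, edgeR adjusted p = 0.077; with the block -1.23, adjusted p = 0.00274). At timepoint 3 it was -1.23 (SE 0.35, edgeR adjusted p = 0.095; with the block -1.02, adjusted p = 0.0167). With all 18 libraries the timepoint 3 difference was -1.01 (edgeR adjusted p = 0.400), and the average, -0.80, no longer passed (adjusted p = 0.0565). The average also did not pass without 2D timepoint 3 replicate 2 (adjusted p = 0.0736), and the timepoint 3 difference did pass without 3D timepoint 2 replicate 1 (adjusted p = 0.0213).

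Within 3D, CDH1 fell by 1.56 from timepoint 1 to 2 (SE 0.32, edgeR adjusted p = 0.00506) and by 1.98 to timepoint 3 (SE 0.33, edgeR adjusted p = 0.000967). Both calls held when any 1 library was left out. Within 2D it was -0.68 at timepoint 2 (edgeR adjusted p = 0.265) and -1.01 at timepoint 3 (edgeR adjusted p = 0.135; with the block -1.18, adjusted p = 0.00731). The 2D change to timepoint 3 passed with all 18 libraries (-1.23, adjusted p = 0.0425) and without 3D timepoint 2 replicate 1 (adjusted p = 0.0346). The order of the group means ran from 217 CPM in 2D timepoint 1 to 46.0 in 3D timepoint 3, a ratio of 4.72. Neighbours in that order overlapped except 2D timepoint 2 over 2D timepoint 3, and 2D timepoint 3 over 3D timepoint 2.

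CDH3 (ENSG00000062038, chromosome 16, 68645310 to 68700292) encodes P-cadherin, the cadherin of basal epithelial cells. It ranged from 123 to 158 CPM over the 8 tested 2D libraries and from 116 to 145 in 3D at timepoint 1. At timepoint 2 in 3D it was at 60.7, 131 and 98.7 CPM, and at timepoint 3 at 76.3, 98.3 and 66.9. The cultures overlapped at timepoint 2 through 3D replicate 2 and did not overlap at timepoint 3. The average difference of -0.47 did not pass (SE 0.13, edgeR adjusted p = 0.0539), and passed with the block (-0.45, adjusted p = 0.00563). It also passed when 3D timepoint 1 replicate 2, 3D timepoint 2 replicate 2 or 3D timepoint 3 replicate 2 was left out (adjusted p = 0.0464, 0.0157 and 0.0353). At timepoint 3 the difference was -0.78 (SE 0.25, edgeR adjusted p = 0.126; with the block adjusted p = 0.0275; with all 18 libraries -0.69, adjusted p = 0.400), and at timepoint 2 it was -0.52 (edgeR adjusted p = 0.211; with the block adjusted p = 0.034).

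Within 3D, CDH3 was -0.70 from timepoint 1 to 3 (SE 0.23, edgeR adjusted p = 0.058; with the block -0.71, adjusted p = 0.00586). That change passed without 3D timepoint 1 replicate 3, 3D timepoint 2 replicate 1, 3D timepoint 2 replicate 2 or 3D timepoint 3 replicate 2 (adjusted p = 0.0477, 0.0183, 0.0318 and 0.0425). In 2D its 3 group means, 141, 139 and 139 CPM, lay within the spread of the libraries.

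CDH2 (ENSG00000170558, chromosome 18, 27950966 to 28177130) encodes N-cadherin, the cadherin of mesenchymal and neural cells. It ranged from 4.20 to 12.7 CPM in 2D and from 3.30 to 10.9 in 3D, and replicate 3 was the lowest library in each of the 6 groups. The cultures overlapped at each timepoint. The average difference was -0.09 (SE 0.24, edgeR adjusted p = 0.857), and none of the fits run called CDH2 between cultures. In 3D the change from timepoint 1 to 3 was -0.69 (SE 0.40, edgeR adjusted p = 0.287), and with the block it was -0.65 and passed (adjusted p = 0.0453).

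VIM (ENSG00000026025, chromosome 10, 17229278 to 17237593) encodes vimentin, the intermediate filament of mesenchymal cells, which cultured basal epithelial cells also make. In 2D it was at 1245, 834 and 1003 CPM at timepoint 1, at 1163, 1188 and 912 at timepoint 2, and at 1284 and 1083 at timepoint 3. In 3D it was at 1198, 910 and 983 CPM at timepoint 1, at 2117, 1862 and 1413 at timepoint 2, and at 1383, 1468 and 1253 at timepoint 3. The 3 libraries of 3D timepoint 2 stood above every 2D library, and the cultures overlapped at timepoints 1 and 3. The difference at timepoint 2 was 0.72 (SE 0.19, edgeR adjusted p = 0.0649; with the block 0.72, adjusted p = 0.00601). It passed when 2D timepoint 1 replicate 2 or 3D timepoint 1 replicate 3 was left out (adjusted p = 0.0465 and 0.0464). At timepoint 3 it was 0.21 (edgeR adjusted p = 0.613).

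Within 3D, VIM rose by 0.80 from timepoint 1 to 2 (SE 0.19, edgeR adjusted p = 0.0118). The call did not hold without 3D timepoint 1 replicate 2 (adjusted p = 0.0597) or 3D timepoint 2 replicate 1 (adjusted p = 0.0509), or when these groups were fitted alone (adjusted p = 0.0867). At timepoint 3 the change was 0.41 (SE 0.19, edgeR adjusted p = 0.189; with the block 0.42, adjusted p = 0.0483). In 2D it was 0.08 at timepoint 2 and 0.20 at timepoint 3 (edgeR adjusted p = 0.895 and 0.655). VIM overlaps the antisense genes VIM-AS1, with a mean of 6799 counts per library, and AL133415.1, with 3524, and since no source used here states whether strand was counted, their reads cannot be told apart.

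SNAI2 (ENSG00000019549, chromosome 8, 48917598 to 48921429) encodes Slug, a zinc-finger repressor that basal mammary cells express. In 2D it was at 31.7, 18.8 and 19.3 CPM at timepoint 1, at 27.1, 22.3 and 26.5 at timepoint 2, and at 20.2 and 21.3 at timepoint 3. In 3D it was at 30.3, 67.9 and 53.5 CPM at timepoint 1, at 66.9, 46.1 and 44.9 at timepoint 2, and at 52.3, 43.7 and 33.6 at timepoint 3. The cultures overlapped at timepoint 1 through replicate 1, the highest 2D and lowest 3D library, and at timepoints 2 and 3 every 3D library was above every tested 2D library. The differences at timepoints 1, 2 and 3 were 1.12, 1.06 and 1.06 (SE 0.28, 0.28 and 0.32). Their edgeR adjusted p were 1, 0.0629 and 0.111, and with the block 1, 0.0212 and 0.0689.

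The average for SNAI2 passed when any 1 library was left out, with adjusted p from 0.00148 to 0.0258. With all 18 libraries it was 0.92 (adjusted p = 0.0439), while the difference at timepoint 3 was 0.59 in place of 1.06 (adjusted p = 0.511). The timepoint 2 difference passed without 3D timepoint 1 replicate 1, 2 or 3 (adjusted p = 0.0485, 0.0472 and 0.0484). Over time SNAI2 did not pass in either culture, with changes from -0.23 to 0.12 (0.30 in 2D to timepoint 3 with all 18 libraries). At the first timepoint the difference between cultures had an unadjusted p of 0.000946 and did not pass over all genes. With no filter on low counts it did (edgeR adjusted p = 0.000836), with an estimate of 1.13 in place of 1.12. That adjusted p is below the unadjusted p of the filtered fit, so it is not read as a call at timepoint 1. The cause of this drop was not tested.

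SNAI1 (ENSG00000124216, chromosome 20, 49982980 to 49988886) encodes Snail, the relative of Slug that represses CDH1. In 2D it was at 1.49, 1.08 and 0.632 CPM at timepoint 1, at 0.620, 0.627 and 0.318 at timepoint 2, and at 0.365 and 0.200 at timepoint 3. In 3D it was at 1.79, 4.96 and 0.957 CPM at timepoint 1, at 0.949, 0.488 and 0.505 at timepoint 2, and at 0.459, 0.383 and 0.293 at timepoint 3. These are low levels, from 15 to 385 counts per library, and 3D timepoint 1 replicate 2 stood apart as the highest. The cultures overlapped at each timepoint. The difference was 1.26 at timepoint 1 (SE 0.51, edgeR adjusted p = 1) and 0.68 on average (SE 0.33, edgeR adjusted p = 0.221).

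Within 3D, SNAI1 fell by 1.97 from timepoint 1 to 2 (SE 0.52, edgeR adjusted p = 0.0197) and by 2.76 to timepoint 3 (SE 0.55, edgeR adjusted p = 0.00363). Without 3D timepoint 1 replicate 2 these were -1.07 (adjusted p = 0.177) and -1.86 (adjusted p = 0.0259). The change to timepoint 2 also lost its call without 3D timepoint 2 replicate 2 or replicate 3 (adjusted p = 0.0608 and 0.0784), and with these groups fitted alone (adjusted p = 0.0656). Within 2D the change to timepoint 3 was -1.94 (SE 0.65, edgeR adjusted p = 0.104; with the block -1.77, adjusted p = 0.0382), and it passed without 3D timepoint 1 replicate 2 (adjusted p = 0.0436). SNAI1 and SNAI2 thus differed in what was called: SNAI2 between cultures and SNAI1 over time in 3D, though whether the 2 genes differ from each other was not tested.

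ZEB1 (ENSG00000148516, chromosome 10, 31319125 to 31529202) encodes a zinc-finger homeobox repressor of CDH1 and of the miR-200 genes. It ranged from 1.29 to 7.94 CPM in 2D and from 1.90 to 6.89 in 3D, and the cultures overlapped at each timepoint. The average difference was -0.08 (SE 0.27, edgeR adjusted p = 0.898), and none of the fits run called it between cultures. In 3D every library of timepoints 2 and 3, from 3.92 to 6.89 CPM, was above every library of timepoint 1, from 1.90 to 3.70. Those changes of 0.93 and 0.88 (SE 0.46 each) did not pass (edgeR adjusted p = 0.186 and 0.238), and did pass with no filter on low counts (adjusted p = 0.0139 and 0.031). These no-filter values are below the unadjusted edgeR p of the filtered fit, 0.0595 and 0.0717, and are not read as calls.

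ESRP1 and ESRP2 (ENSG00000104413 on chromosome 8, 94641174 to 94707466, and ENSG00000103067 on chromosome 16, 68229117 to 68236070) encode the RNA-binding proteins that set epithelial splice choices. At timepoint 2 in 2D ESRP1 was at 60.5, 51.1 and 67.5 CPM, and in 3D at 43.7, 30.4 and 43.3. ESRP2 was at 44.1, 49.4 and 46.2 CPM in 2D and at 27.7, 39.4 and 38.3 in 3D. For both genes the cultures did not overlap there. The differences were -0.61 for ESRP1 (SE 0.19, edgeR adjusted p = 0.104) and -0.41 for ESRP2 (SE 0.16, edgeR adjusted p = 0.174). With the block both passed (adjusted p = 0.0323 and 0.0191), as did both averages, -0.36 and -0.24 (adjusted p = 0.0318 and 0.0197, against 0.0895 and 0.119 without the block).

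Over time in 2D the estimates of ESRP2 had the opposite sign to those of CDH1 and EPCAM. Its group means were 37.9, 46.6 and 55.9 CPM at timepoints 1, 2 and 3 in 2D, and 37.0, 35.2 and 44.5 in 3D. The 2D change to timepoint 3 was 0.56 (SE 0.18, edgeR adjusted p = 0.0849; with the block 0.48, adjusted p = 0.0215), and it passed without 3D timepoint 2 replicate 1 (adjusted p = 0.0494). ESRP1 had means of 52.8, 59.7 and 58.4 CPM in 2D and 49.6, 39.2 and 46.0 in 3D, and no time comparison of it passed in either fit. ESRP2 overlaps the end of NFATC3, which lies on the other strand and had a mean of 4939 counts per library, so that reads in the shared stretch cannot be told apart.

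EPCAM (ENSG00000119888, chromosome 2, 47369148 to 47387034) encodes an adhesion and signalling molecule of simple and cultured epithelia. In 2D it was at 39.2, 33.9 and 24.2 CPM at timepoint 1, at 26.1, 17.9 and 20.3 at timepoint 2, and at 13.0 and 14.6 at timepoint 3. In 3D it was at 45.6, 33.9 and 25.1 CPM at timepoint 1, at 11.8, 9.41 and 11.7 at timepoint 2, and at 8.83, 7.49 and 12.8 at timepoint 3. The cultures overlapped at timepoint 1, and afterwards every 3D library was below every tested 2D library, most narrowly at timepoint 3 (12.8 against 13.0 CPM). The 2D library left out of the tests, at 11.7 CPM, lay inside the 3D range of timepoint 3. The changes over time and between cultures follow for EPCAM. Within 3D EPCAM fell by 1.67 to timepoint 2 (SE 0.25, edgeR adjusted p = 0.000507) and by 1.84 to timepoint 3 (SE 0.26, edgeR adjusted p = 0.000202). Both calls held when any 1 library was left out. Within 2D it fell by 1.23 to timepoint 3 (SE 0.29, edgeR adjusted p = 0.0213). That call was lost without 2D timepoint 1 replicate 1 or 2 or 2D timepoint 3 replicate 2 or 3 (adjusted p = 0.0742, 0.0552, 0.201 and 0.134), and with all 18 libraries the fall was 1.31 (adjusted p = 0.00497).

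Between cultures, EPCAM was -0.97 at timepoint 2 (SE 0.25, edgeR adjusted p = 0.0603; with the block -0.96, adjusted p = 0.0121). This passed without 2D timepoint 1 replicate 3 or 3D timepoint 1 replicate 3 (adjusted p = 0.0446 and 0.0349). At timepoint 3 it was -0.51 (edgeR adjusted p = 0.326; with all 18 libraries -0.43, adjusted p = 0.516), and on average -0.46 (SE 0.15, edgeR adjusted p = 0.085; with the block -0.49, adjusted p = 0.0199; without 2D timepoint 1 replicate 3, adjusted p = 0.0473). In the authors' deposited table for timepoint 2, CDH1 (log2 fold change -1.34, adjusted p = 0.0409) and EPCAM (-0.996, adjusted p = 0.0431) passed, 2 of 10 members beside 489 of 13677 genes. In the authors' deposited tables for timepoints 1 and 3 none of the 10 passed, beside 0 and 294 genes.

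Ratios of 2 genes within a library do not depend on the scaling between libraries, and only their change between groups can be read. The log2 ratio of CDH3 to CDH1 was -0.59 ± 0.24 in 2D and -0.46 ± 0.29 in 3D at timepoint 1, and 0.36 ± 0.08 and 0.81 ± 0.05 at timepoint 3 (SD, n = 3, or 2 in 2D at timepoint 3). That of VIM to CDH1 was 2.26 ± 0.70 and 2.52 ± 0.52 at timepoint 1, 3.01 ± 0.37 and 5.00 ± 1.07 at timepoint 2, and 3.45 ± 0.14 and 4.92 ± 0.23 at timepoint 3. That of CDH2 to CDH1 was -4.74 ± 0.93 and -4.52 ± 0.87 at timepoint 1, and -4.51 ± 0.19 and -3.16 ± 0.35 at timepoint 3. All 3 ratios share CDH1, the member with the larger change of each pair, and they are given as descriptions. With the left-out library, the 2D timepoint 3 means were 0.52, 3.73 and -3.99 for CDH3, VIM and CDH2 to CDH1.

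**Figure D4:**
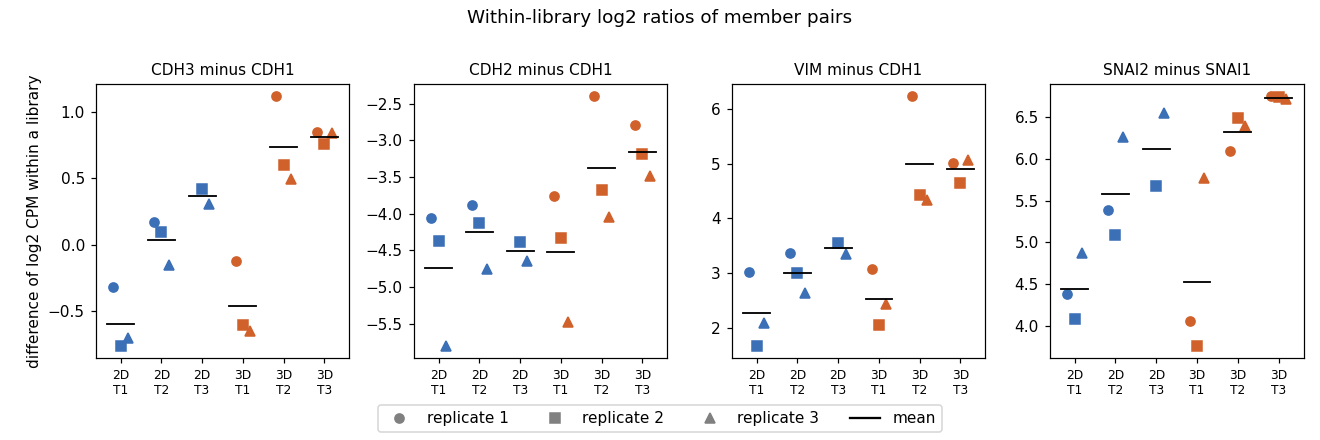
Difference of log2 CPM between 2 genes within each library (vertical axis) by culture and timepoint, for CDH3, CDH2 and VIM against CDH1 and for SNAI2 against SNAI1. Symbols are replicates (2D blue, 3D orange) and black bars are means; the 3D libraries of timepoints 2 and 3 are above the tested 2D libraries in the CDH3 and VIM panels, where the means reach 0.81 and 5.00.

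For the 5 genes called in a comparison, the most similar profiles over the 17 libraries were taken among 13573 genes by the root mean square difference of centred log2 CPM. For SNAI2 they were ID3 (0.27), DLX1 (0.28) and ID1 (0.37); ID1 and ID3 encode inhibitors of basic helix-loop-helix factors and are classical targets of BMP signalling. For EPCAM they were DDAH1 (0.29), YOD1 (0.33) and CD9 (0.33), the last a tetraspanin. For CDH1 the nearest was AC099314.1 (0.19), an antisense gene that lies inside CDH1 and can share its reads, and the third was ARHGEF37 (0.28). For VIM the nearest was the overlapping AL133415.1 (0.05), followed by BNIP3 and PRAF2 (0.16 each), and for SNAI1 GASAL1 (0.36), ANGPTL4 (0.52) and AL033397.2 (0.55).

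The wider set held 110 genes in 9 lists, of which 101 were tested. These lists too were chosen with earlier results of these data known. On average over timepoints 3 of the 101 were higher and 14 lower in 3D, beside the 2.25% and 2.88% of all genes. With the block 8 were higher and 29 lower, beside 9.59% and 9.15%, and with all 18 libraries 0 were higher and 5 lower. The share of all genes called with all 18 libraries is not given here. Whether the smaller counts with all 18 libraries are particular to these lists therefore cannot be read. Of 11 epithelial-state transcription factors tested, 6 were lower in 3D on average (2.88% of all genes) and none higher, with a list median of -0.60 beside 0.00 for all genes. They included GRHL3 (-1.63, SE 0.25, edgeR adjusted p = 0.00294), a grainyhead factor of epithelial barriers, and OVOL1 (-0.95, SE 0.22, edgeR adjusted p = 0.0219), a repressor of ZEB1. ELF3 and KLF5 were lower as well (-2.63 and -0.37, edgeR adjusted p = 0.000236 and 0.0265). Of the 6 average calls, 4 held with all 18 libraries, those of GRHL3, OVOL1, ELF3 and KLF5. At timepoint 2 ELF3, GRHL3, OVOL1 and EHF were lower, 4 of 11 beside 0.785% of all genes, and at timepoint 3 ELF3 and GRHL3, 2 of 11 beside 1.26%. Among them ELF3 alone passed at timepoint 2 with all 18 libraries (adjusted p = 0.0439), and at timepoint 3 neither did (adjusted p for ELF3 0.197, GRHL3 0.390).

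Among 15 other epithelial surface and trafficking genes 6 were lower in 3D on average (2.88% of all genes) and none higher (median -0.32), and with all 18 libraries 1 was lower. PRSS8, a serine protease of epithelial membranes, was -1.49 at timepoint 3 (SE 0.28, edgeR adjusted p = 0.0149), and MARVELD2, a protein of tricellular junctions, was -0.72 at timepoint 2 (SE 0.17, edgeR adjusted p = 0.0496). F11R, a junctional adhesion molecule, was -0.33 on average (SE 0.08, edgeR adjusted p = 0.0311). These 3 did not pass with all 18 libraries (adjusted p = 0.390, 0.0707 and 0.0574).

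Of 11 genes of the cadherin-catenin complex 1 was lower in 3D on average, beside 2.88% of all genes, and none was higher. It was ARVCF, a catenin of the p120 family (-0.76, SE 0.17, edgeR adjusted p = 0.0182, and 0.168 with all 18 libraries). In 3D 4 of the 11 fell and 1 rose from timepoint 1 to 2, beside 7.76% and 7.31% of all genes, and 5 fell to timepoint 3, beside 6.95%; the falls to timepoint 2 were VCL (-0.97), NECTIN2 (-1.33), JUP (-1.47) and AFDN (-0.88). In 2D 3 of the 11 fell to timepoint 2 (NECTIN2, VCL, JUP, by -1.16, -0.73 and -0.92), beside 3.22% of all genes. With all 18 libraries the fall of JUP in 2D (edgeR adjusted p = 0.103) did not pass. Nor did the rise in 3D to timepoint 2, which was ARVCF (edgeR adjusted p = 0.133). Of 13 other cadherins tested none passed between cultures, and with the block 3 were lower on average (9.15% of all genes). CDH4 fell and CDH16 rose from timepoint 1 to 2 in both cultures, by -2.02 and 1.80 in 2D and -1.47 and 1.46 in 3D; the share of all genes that rose in 2D was 2.66%.

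Among 16 mesenchymal effector genes tested, 3 were higher in 3D on average (2.25% of all genes) and none lower, among them TGFBI, a matrix protein (0.84, SE 0.20, edgeR adjusted p = 0.0244) and NT5E, an ectonucleotidase (0.71, SE 0.18, edgeR adjusted p = 0.0364). None of these 3 passed with all 18 libraries. From timepoint 1 to 2 in 3D 4 rose, FN1 (2.16), NT5E (1.31), TGFBI (1.21) and ACTA2 (0.80), 4 of 16 beside 7.31% of all genes, and none fell. With all 18 libraries NT5E and ACTA2 passed there, and FN1 and TGFBI did not (edgeR adjusted p = 0.0713 and 0.0613). To timepoint 3 NT5E rose (1.35) and ITGA5 fell (-1.32), 1 of 16 each beside 4.07% and 6.95%. With all 18 libraries NT5E passed there and ITGA5 did not (edgeR adjusted p = 0.0571).

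Of 9 other EMT transcription factors tested 1 was lower in 3D on average, beside 2.88% of all genes, and none was higher. It was KLF8 (-0.58, SE 0.13, edgeR adjusted p = 0.0213, and 0.0564 with all 18 libraries). FOSL1, an AP-1 subunit, fell from timepoint 1 to 2 in both cultures (-1.22 in 2D and -1.01 in 3D). None of 12 SNAI and ZEB corepressors and none of 12 other RNA-binding proteins of epithelial and mesenchymal splicing passed between cultures without the block. With it, 1 corepressor was higher (9.00% of all genes) and 3 were lower (6.86%) at timepoint 2, and 1 was lower at timepoint 3 (5.30%). On average 2 corepressors were higher (9.59%) and 2 lower (9.15%) with the block. Of the splicing proteins 2 were lower at timepoint 2 (6.86% of all genes), 1 was higher at timepoint 3 (4.45%) and 1 was lower on average (9.15%). From timepoint 1 to 2 in 3D RCOR1 and AJUBA fell among the corepressors (-1.46 and -1.51), with CTBP2 and SIN3A (-0.54 and -0.61), and MBNL2 and MBNL1 among the splicing proteins (-1.56 and -1.23), with CELF1 and KHDRBS1 (-0.57 and -0.43), 4 of 12 in each list beside 7.76% of all genes. In 2D 4 of 12 corepressors also fell to timepoint 2, beside 3.22% of all genes. They were RCOR1, AJUBA, WTIP and SUV39H1 (edgeR adjusted p = 0.00144, 0.00212, 0.0404 and 0.00691). Of the splicing proteins 1 of 12 fell there, KHDRBS1 (edgeR adjusted p = 0.0271).

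MIR205HG, whose transcript yields the miR-205 printed above, was at 428 ± 188, 1033 ± 68.1 and 849 ± 180 CPM at timepoints 1, 2 and 3 in 3D (SD, n = 3 each). It rose by 1.27 to timepoint 2 (SE 0.29, edgeR adjusted p = 0.00847) and by 0.99 to timepoint 3 (SE 0.29, edgeR adjusted p = 0.0352). It did not pass between cultures (0.71 at timepoint 2, edgeR adjusted p = 0.18). MIR200CHG, the host transcript of miR-200c and miR-141, had group means from 0.832 to 1.65 CPM and passed in no comparison of the group means. Poly-A libraries count the host transcripts and not the mature microRNAs.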

How the data were processed

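MCF10A libraries were mapped to hg38; STAR 2.7.1a, HOMER, edgeR and limma are named in the submitters' processing notes, with no role, annotation release or strand. The deposited count table holds whole-number counts per gene with no normalisation by the authors, and all 18 sample columns were mapped by title. The authors' deposited log2 CPM table was used for an alternative, and the authors' deposited tables per timepoint give log2 fold changes with p-values and adjusted p-values; the score columns in them (limma's t and B statistics), as deposited, were not used.

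Counts of 17 libraries were filtered with filterByExpr, scaled by TMM and tested with edgeR 4.0.16 (R 4.3.3) by the quasi-likelihood F test on group means, with Benjamini-Hochberg adjustment over 18592 genes and a threshold of 0.05. The standard error is the log2 fold change over the square root of F. Intervals for counting are not given, since summed counts exceed the header totals. The scripts were tested on simulated data.

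Same-numbered libraries share a date in the labels, so the numbers pair them. Deviations from group means correlated at 0.209 on average over 40 same-numbered pairs (lowest -0.04) and at -0.104 over 80 others. Deviations within a group sum to 0, which ties the second value to the first, so it is no separate evidence of pairing. Over the 8 same-numbered pairs from the same timepoint the mean correlation was 0.324 (lowest 0.186). The common dispersion was 0.0686 in the fit of group means and 0.0363 with the replicate block. The share of equal counts between any 2 libraries was at most 2.57%.

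The members and lists were chosen with earlier results of these data known. All 10 members were named in each comparison, in each list up to 4 called genes with the smallest p, and for each called member the 3 nearest genes with a mean count of at least 50. A few genes that this rule names are not reported here. Sequences are from RefSeq (GRCh38.p14), and overlaps from GENCODE gene spans. Alternatives were DESeq2 1.42.0, limma-voom 3.58.1, RLE and upper-quartile scaling, other filters, all 18 libraries, the replicate block, groups fitted alone, limma on the authors' log2 CPM, and leaving out each library; all 18 libraries together with the block was added after seeing the data.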

Additional observations from a re-analysis of the deposited data

Results flagged for a closer look

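SNAI2 was at 44.68 CPM in the 2D timepoint 3 library left out of the tests (replicate 1), above the 18.8 to 31.7 CPM of the 8 tested 2D libraries and inside the 33.6 to 52.3 CPM of 3D at timepoint 3. It stands out because it is a value from a library left out of the 17 tested, used only where all 18 are named. The same library was below all 8 for CDH1, CDH3 and EPCAM, and it lay within their range for VIM, SNAI1, ZEB1, ESRP1, ESRP2 and CDH2. Its EPCAM, 11.7 CPM, lay inside the 7.49 to 12.8 CPM of 3D at timepoint 3. Its CDH1 and CDH3 were above each 3D library of timepoint 3. The part of this library's labels, culture or handling in these values was not tested.

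ELF3, an epithelial-state transcription factor, had a culture difference at timepoint 3 that departed from that at timepoint 1 by -4.16 on the log2 scale (SE 0.69, edgeR adjusted p = 0.0232), the only gene of the wider set for which this test passed without the block. Without the block 0.183% of all genes passed this test. With the block 1 gene of the set was higher and 4 were lower, beside 100 and 190 of the 18592 genes. ELF3 was among the lower (-4.18, adjusted p = 0.000982). With all 18 libraries the value for ELF3 was -3.62 and did not pass (edgeR adjusted p = 0.980). In 3D at timepoint 3 it was at 0.800 ± 0.606 CPM (SD, n = 3) and in 2D at 14.6 ± 3.43 CPM (SD, n = 2).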

How the results depend on the processing

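No direction of a called value reversed under any alternative. Of 1700 single-gene values with 1 library left out, 1669 kept their side of the threshold, 19 newly passed and 10 no longer passed. A further 2 that passed in neither changed sign by more than their SE. Of 1100 under the other settings, 1009 kept their side, 86 newly passed, 3 no longer passed and 2 changed sign in this way. Among those that kept their side, 54 and 15 had the opposite sign and passed in neither. The library left out was often outside the groups compared. The count of the 10 genes called was 0, 0, 0 and 2 between cultures (timepoints 1, 2, 3 and average) and 0, 1, 4 and 3 over time (2D timepoints 2 and 3, 3D timepoints 2 and 3). With no filter on low counts these became 1, 4, 3 and 4, and 1, 3, 5 and 5. With DESeq2 they were 5 at timepoint 2, 3 at timepoint 3, 5 on average and 3 in 2D to timepoint 3. With groups fitted alone they were 2 at timepoint 2, 1 at timepoint 3 and 2 in 3D to timepoint 2. A minimum of 1 CPM in 3 libraries gave 1 at timepoint 2, and limma on the authors' log2 CPM gave 2. With all 18 libraries the average had 1 and 2D to timepoint 3 had 2. The wider set, 17 called on average, had 27 with DESeq2, 26 with no filter, 5 with all 18 libraries and 37 with the block. Shares of all genes called are not given for settings other than the group means and the block, nor with 1 library left out. Counts under those settings are therefore no result about the members alone. The cause of these changes was not tested.

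With the replicate block the counts were 7 at timepoint 2, 2 at timepoint 3, 7 on average, 4 in 2D to timepoint 3 and 6 in 3D to timepoint 3. With the block and all 18 libraries, an alternative chosen after seeing the data, they were 7, 2, 6, 4 and 6, and 1 in 2D to timepoint 2. Leaving out 1 library gave 0 to 3 at timepoint 2, 0 to 1 at timepoint 3, 1 to 3 on average, 0 to 3 in 2D to timepoint 3 and 2 to 4 in 3D to timepoint 2. In every setting run, none of the 10 was called in the direct tests of whether the culture difference changed between timepoints. The summed counts exceed the header totals, so counting error was not set apart from the spread between libraries, and SNAI1, ZEB1 and CDH2 rest on the lowest levels.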
